A study of Nicotiana tabacum with 60 samples.

Results

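ycf1 and ycf2 are the longest reading frames of the tobacco (Nicotiana tabacum) chloroplast genome, and they are 2 of the 78 chloroplast genes in the deposited count tables. They were taken by name, with earlier results of these data known. Translation was measured by ribosome profiling (Ribo-seq, which counts the RNA fragments that ribosomes protect) and RNA levels by RNA-seq of total RNA in leaf tissue of 10 lines, with 3 replicates of each kind of library, 60 libraries in all. The study asked whether the loss of a subunit of a photosynthetic complex alters the expression of chloroplast genes, and each of the 7 mutants was compared with its own control line.

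5 mutants had the line pRB8c as control. Δ3'-psbD has lost the end of psbD and the beginning of psbC (photosystem II). In ΔpsbJ the aadA resistance marker replaces psbJ (photosystem II). ΔpetB/D lacks the genes between psbB and the start of petD, so that it has lost photosystem II genes together with petB and petD of the cytochrome b6f complex. ΔpetN is disrupted in petN (cytochrome b6f complex). ΔatpB/E, which the labels name after atpB, is deleted in atpB and atpE (ATP synthase) and has white leaves. ΔpsaB carries a frameshift in psaB (photosystem I), and was compared with RB70. The study pooled 2 alleles of it, and its figures count 1 allele as replicates 1 and 2 and the other as replicate 3, but the labels do not name the alleles, so it is uncertain whether the deposited libraries are numbered in the same way. as-ATPC expresses an antisense RNA against the nuclear gene for the gamma subunit of the ATP synthase and was compared with SNN, a wild type. pRB8c and RB70 are transplastomic lines that carry the aadA marker without the mutation. For every line the labels give the cultivar Petit Havana, growth on Murashige and Skoog medium with sucrose and harvest at the 4-leaf stage. The study instead names as-ATPC among the lines grown without sugar, which its methods place on soil. It gives as-ATPC stronger light than the mutants on sucrose, and states that controls grew beside their mutants. Labels and study thus differ on the growth of as-ATPC and SNN, which is uncertain.

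Neither gene encodes a part of the photosynthetic machinery. Knockout experiments in tobacco found both to be essential for the cell. Ycf1 (also called Tic214) is assigned to the protein translocon of the inner chloroplast envelope, and Ycf2, a relative of AAA-type ATPases, to a motor complex that pulls imported proteins through that membrane. Chloroplast genes are transcribed by a plastid-encoded RNA polymerase, which serves most photosynthesis genes, and by a nucleus-encoded polymerase (NEP), whose known promoters include those of ycf1, ycf2, accD, clpP and the rpoB operon.

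The ycf1 reading frame has 5709 nt (1902 codons), second in length of the 78, and was counted over positions 125901 to 131569 on the minus strand of the chloroplast genome to which the study mapped its reads. ycf2 has 6843 nt (2280 codons), is the longest of the 78 and lies in both copies of the inverted repeat, at 88895 to 95697 on the plus strand and 146913 to 153715 on the minus strand. The tables list 1 total count for both positions of ycf2. How reads that match both copies were weighted was stated in none of the sources used here, and in RNA-seq the ycf2 value is not a whole number in 19 of the 30 libraries, whereas every Ribo-seq value is whole. The level of ycf2 beside that of other genes depends on this weighting, and a change between lines does not if it was the same in all libraries of a kind. How reads from the part of ycf1 inside the repeat were assigned, and whether counting used the strand, was stated in none of the sources used here.

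The frames make up 18.3% of the summed frame length (ycf1 8.32%, ycf2 9.98%) but a far smaller part of the reads. Together they took 3.09% ± 0.26 (SD, n = 3) of the coding footprints in ΔatpB/E, 1.03% ± 0.83 in ΔpsaB, 0.880% ± 0.064 in Δ3'-psbD, 0.538% ± 0.168 in ΔpetB/D, 0.450% ± 0.063 in as-ATPC, 0.330% ± 0.054 in ΔpetN and 0.185% ± 0.021 in ΔpsbJ. The control lines had 0.183% ± 0.065 (pRB8c), 0.189% ± 0.094 (RB70) and 0.293% ± 0.030 (SNN). In RNA the joint share was 1.03% ± 0.39 in ΔatpB/E and 0.0786% ± 0.0067 in pRB8c, the highest and the lowest of the 10 lines. Per length of frame, ycf1 ranked 55 to 61 of 78 genes by footprints in the ΔatpB/E libraries and 72 to 73 in pRB8c, and ycf2 ranked 70 to 74 in ΔatpB/E and 77 in pRB8c if the counts of repeat genes are divided by their copies. With undivided counts ycf2 ranked 60 to 70 in ΔatpB/E and 74 to 76 in pRB8c.

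Coding footprints totalled 31328 to 5331355 per library (median 978288) and coding RNA counts 1029393 to 14748697 (median 10963281). The lowest count behind a value was 138 for ycf1 and 78 for ycf2 in Ribo-seq. There the exact binomial 95% interval of the gene's share of coding counts reaches 17.1% and 22.9% to a side, averaged over both sides. In RNA-seq the lowest count was 891 and 1130 (6.62% and 5.87%). These intervals cover counting error only. The chloroplast share of footprints mapped to all genomes was 3.00 to 4.79% in ΔatpB/E, 9.10 to 11.3% in Δ3'-psbD and 22.4 to 27.5% in pRB8c. ΔpsaB replicate 1 stood apart, with 31328 coding footprints and a chloroplast share of mapped footprints of 3.35%, against 15.3 and 17.05% in its other replicates. In Δ3'-psbD replicate 3, 24.4% of chloroplast footprints fell in counted frames, against 53.3 and 55.3% in replicates 1 and 2. The RNA libraries of ΔpsaB and RB70 held 1029393 to 2278699 coding counts, against 6918157 or more in the other lines, and their coding counts came to 95.5 to 114% of the reads listed as chloroplast, against 71.3 to 87.0% elsewhere. The part of these differences in the results below was not tested. In whole leaf tissue, fewer cells of a type and less RNA per cell cannot be told apart. The log2 change in translation output of the disrupted gene was -6.46 for psbC in Δ3'-psbD, -6.39 for psbJ, -7.42 for petB in ΔpetB/D, -6.38 for petN and -5.50 for atpB. It was -1.45 for psaB (adjusted p = 0.063, edgeR), whose frame is shifted rather than removed and whose RNA change was -0.02.

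Levels are given in CPM, counts per 1000000 coding counts of the library. The change in footprints is called translation output, the change in transcripts RNA, and their difference translation efficiency. Fold changes are log2 values, mutant over control, from edgeR's quasi-likelihood test with TMM scaling, with Benjamini-Hochberg adjustment over all 77 genes tested (matK had too few counts), and a change was called where the adjusted p was at most 0.01. The 5 mutants compared with pRB8c share its 3 libraries, so their values are not independent of each other.

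By footprints, ycf1 was highest in ΔatpB/E, whose lowest library lay above every library of ΔpsaB, the next line, and of the other neighbours in the order as-ATPC and SNN did not overlap. ycf2 was highest in ΔatpB/E, ΔpsaB, Δ3'-psbD and ΔpetB/D, each overlapping with the next, followed by as-ATPC and ΔpetN, each apart from its neighbours. The order is that of the means, and ΔpsaB, with a lowest library of 1690 CPM, also overlapped with as-ATPC (1637 to 2208). The lower end held SNN, RB70, ΔpsbJ and pRB8c, each overlapping with the next. In RNA, ycf2 in ΔpetB/D lay apart from its neighbours by the mean, Δ3'-psbD above and ΔpetN below. ΔpsaB had a higher mean but overlapped with ΔpetB/D and ΔpetN (10771, 1971 and 1403 CPM, against 1927 to 2593 and 1260 to 1543). SNN, RB70 and pRB8c were the lowest, each apart from the next.

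**Figure D1:**
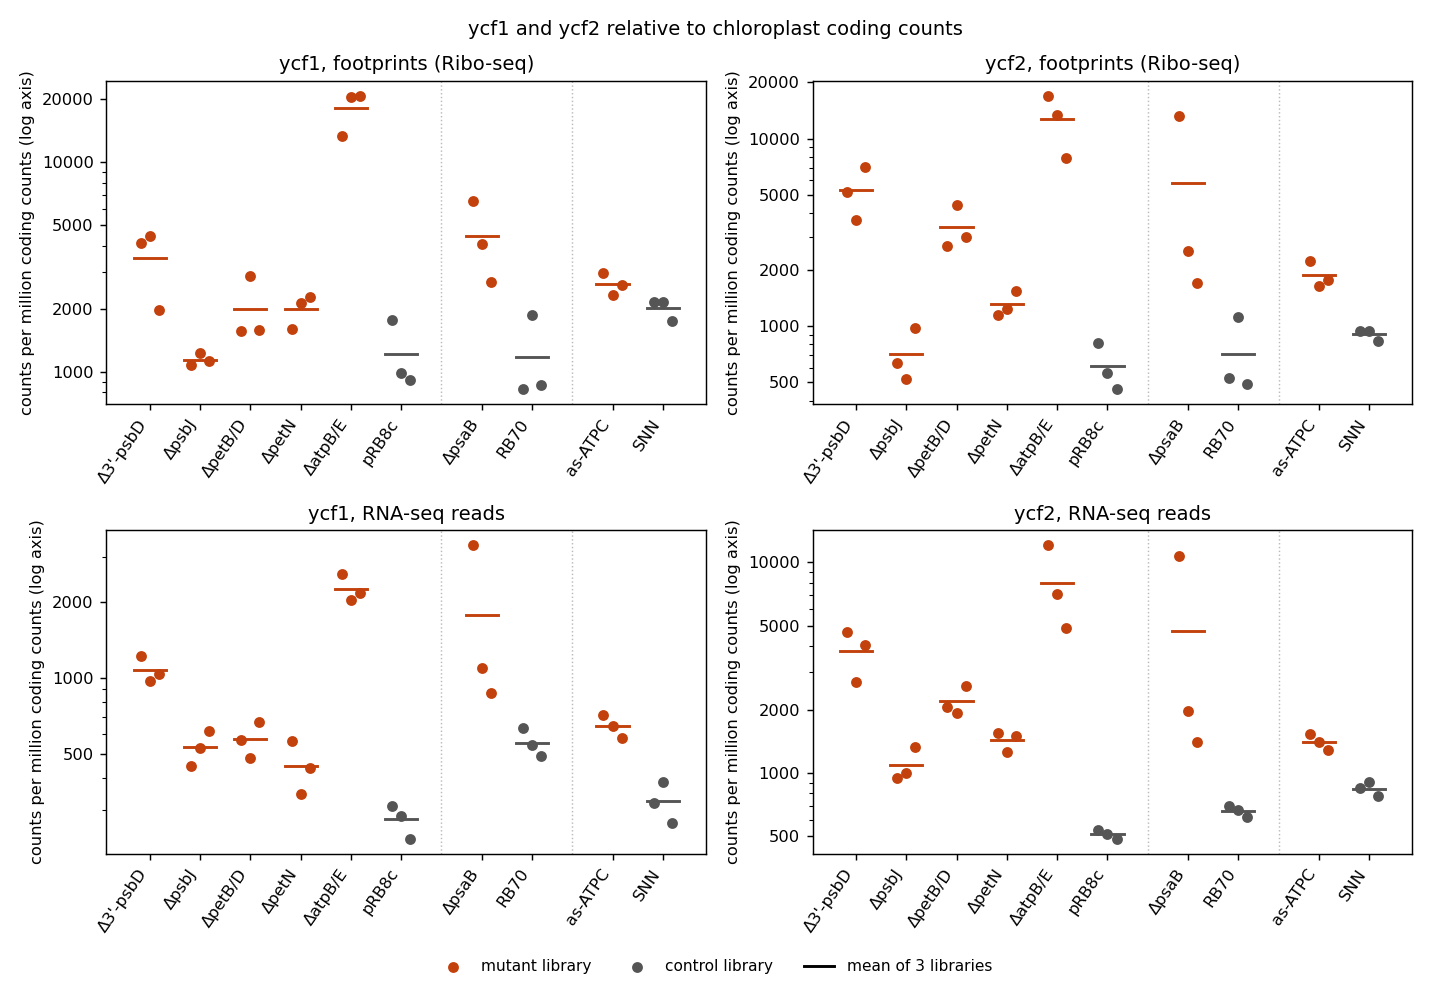
Counts of ycf1 and ycf2 per 1000000 coding counts (log axis) in each library of the 10 lines, in Ribo-seq and RNA-seq, every mutant left of its control and a bar at the mean of 3 replicates. The ΔatpB/E footprint values of ycf1 sit between 13298 and 20743, above every other library.

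ΔatpB/E had the highest levels of both genes relative to the other chloroplast frames. ycf1 had 13298, 20489 and 20743 CPM of footprints in ΔatpB/E, against 1761, 986 and 913 in pRB8c. ycf2 had 16931, 13314 and 7903 CPM of footprints in ΔatpB/E, against 808, 563 and 459 in pRB8c. The groups did not overlap for either gene, and among the ΔatpB/E replicates ycf1 was lowest in replicate 1 and ycf2 lowest in replicate 3. Per coding count the median footprint change of all 77 genes was itself 1.12, and 47 genes were called higher. Translation output of ycf1 rose by 3.12 ± 0.34 (SE, 8.70-fold, adjusted p = 2.57e-05, edgeR) and that of ycf2 by 3.57 ± 0.33 (11.9-fold, adjusted p = 1.30e-05, edgeR). They ranked 5 and 4 of 77 genes, in a comparison in which 44.2% of all genes were called higher and 18.2% were called higher and at least 4-fold.

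The transcripts rose too in ΔatpB/E. ycf1 RNA was 2566, 2021 and 2167 CPM in ΔatpB/E, against 310.3, 282 and 229.7 in pRB8c. ycf2 RNA was 12075, 7059 and 4904 CPM in ΔatpB/E, against 539, 512 and 487 in pRB8c. Every mutant library lay above every control library, and the spread of ycf2 among the mutant replicates was wider than that of ycf1. Per coding count the median RNA change of all 77 genes was itself 1.27, and 46 genes were called higher. The log2 change was 1.92 ± 0.15 (SE) for ycf1 and 2.77 ± 0.21 for ycf2 (adjusted p = 5.39e-06 for each, edgeR), where 41.6% of genes were called higher. ycf2 RNA rose more than that of any other gene (rank 1 of 77; 6.80-fold), and 7.79% of genes were called at least 4-fold higher. For ycf1 the sign of the translation efficiency depended on the scaling. With TMM scaling it was higher by 1.204 ± 0.36 (SE, adjusted p = 0.00862, edgeR; 36.4% of genes called higher). Per read mapped to all genomes it was called lower, at -2.17 (adjusted p = 0.000475, edgeR), where 73 of 77 genes were called lower. The call with TMM scaling was lost without any of the ΔatpB/E replicates and without pRB8c replicates 2 or 3 (0.90 to 1.19, adjusted p = 0.0229 to 0.0593, edgeR). For ycf2 the estimate with TMM scaling was 0.81 ± 0.37 (adjusted p = 0.0754, edgeR). Its sign depended on the scaling as well. Per read mapped to all genomes ycf2 was called lower, at -2.64 (adjusted p = 3.81e-05, edgeR).

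In Δ3'-psbD the footprints of ycf2 passed the test and those of ycf1 did not, which is no test of a difference between the genes. ycf2 had 5197, 3660.5 and 7021 CPM of footprints in Δ3'-psbD, against 808, 563 and 459 in pRB8c. ycf1 had 4131, 4433 and 1966 in Δ3'-psbD, against 1761, 986 and 913 in pRB8c. Neither gene's groups overlapped on this scale, but replicate 3 held the highest ycf2 and the lowest ycf1 value of the mutant. Per coding count the median footprint change of all 77 genes was itself 1.16, and 45 genes were called higher. Translation output of ycf2 rose by 1.99 ± 0.32 (SE, 3.97-fold, adjusted p = 0.00434, edgeR; rank 3 of 77), where 11.7% of genes were called higher. The call was lost without Δ3'-psbD replicate 1 or without any of the pRB8c replicates, at 1.80 to 2.18 (adjusted p = 0.0122 to 0.0240, edgeR). For ycf1 the estimate was 0.38 ± 0.34 (adjusted p = 0.368, edgeR) and -0.65 per read mapped to all genomes.

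Both transcripts rose in Δ3'-psbD. ycf2 RNA was 4650.3, 2708 and 4038 CPM in Δ3'-psbD, against 539, 512 and 487 in pRB8c, a change of 2.21 ± 0.19 (SE, 4.63-fold, adjusted p = 2.38e-15, edgeR). Only 1 gene of 77 had a larger RNA change in this mutant. ycf1 RNA was 1216, 972 and 1029.9 CPM in Δ3'-psbD, against 310.3, 282 and 229.7 in pRB8c, a change of 1.29 ± 0.23 (adjusted p = 1.43e-06, edgeR). 40.3% of genes were called higher in RNA and 7.79% at least 4-fold higher. Translation efficiency was -0.90 ± 0.39 for ycf1 (adjusted p = 0.0786) and -0.22 ± 0.41 for ycf2 (adjusted p = 0.669, edgeR). In it 1.30% of genes were called higher, and 8 of 77 lower.

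In ΔpetB/D, ycf2 footprints rose and ycf1 footprints did not pass the test. ycf2 had 2665, 4439.9 and 3002 CPM of footprints in ΔpetB/D, against 808, 563 and 459 in pRB8c, a change of 1.48 ± 0.29 (SE, 2.78-fold, adjusted p = 0.00559, edgeR; rank 4 of 77), where 13.0% of genes were called higher. Leaving out ΔpetB/D replicate 1 or 2 or pRB8c replicate 2 ended the call (1.35 to 1.62, adjusted p = 0.0104 to 0.0282, edgeR). ycf1 had 1568, 2866 and 1584 CPM of footprints in ΔpetB/D, against 1761, 986 and 913 in pRB8c. These libraries overlapped, and the estimate was -0.29 ± 0.33 (adjusted p = 0.511, edgeR). ycf2 RNA was 2059.7, 1927 and 2593 CPM in ΔpetB/D, against 539, 512 and 487 in pRB8c, and rose by 1.75 ± 0.14 (SE, 3.36-fold, adjusted p = 8.77e-13, edgeR; rank 3 of 77). ycf1 RNA was 566, 479 and 667 CPM in ΔpetB/D, against 310.3, 282 and 229.7 in pRB8c, and rose by 0.71 ± 0.16 (adjusted p = 0.000197, edgeR), where 41.6% of genes were called higher. Against RB70 in place of pRB8c the ycf1 call was lost (0.24, adjusted p = 0.183, edgeR). The ycf1 translation efficiency of -0.995 ± 0.37 (adjusted p = 0.0446) and the ycf2 value of -0.27 ± 0.31 (adjusted p = 0.475, edgeR) did not pass the test. In translation efficiency 10.4% of genes were called higher, and 15 of 77 lower.

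In ΔpetN, ycf2 RNA rose and the other measurements of both genes did not pass the test. It was 1543, 1259.8 and 1502 CPM in ΔpetN, against 539, 512 and 487 in pRB8c, and rose by 0.67 ± 0.10 (SE, 1.59-fold, adjusted p = 5.66e-05, edgeR). 26.0% of genes were called higher in RNA, in translation output and in translation efficiency alike. ycf1 RNA was 559, 345 and 437 CPM in ΔpetN, against 310.3, 282 and 229.7 in pRB8c. These libraries did not overlap either, but with TMM scaling the estimate was -0.11 ± 0.15 (adjusted p = 0.499, edgeR). The median of all genes in this comparison was -0.06 with TMM and 0.75 per coding count. By footprints, ycf1 had 1595, 2125 and 2282 CPM in ΔpetN, against 1761, 986 and 913 in pRB8c (-0.02 ± 0.26, adjusted p = 0.954, edgeR). ycf2 had 1146, 1232 and 1528 CPM of footprints in ΔpetN, against 808, 563 and 459 in pRB8c (0.35 ± 0.22, adjusted p = 0.187, edgeR). Translation efficiency was 0.10 ± 0.31 for ycf1 (adjusted p = 0.786) and -0.33 ± 0.25 for ycf2 (adjusted p = 0.262, edgeR), with 17 of 77 genes called lower.

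In ΔpsbJ no measurement of either gene passed the test. ycf1 had 1083, 1225 and 1123 CPM of footprints in ΔpsbJ, against 1761, 986 and 913 in pRB8c (-0.20 ± 0.23 SE, adjusted p = 0.531, edgeR). ycf2 had 638, 520.0 and 971 CPM of footprints in ΔpsbJ, against 808, 563 and 459 in pRB8c (0.11 ± 0.26, adjusted p = 0.781, edgeR). The footprint libraries overlapped for both genes, and 7.79% of genes were called higher. The 95% interval of the ycf1 change ran from -0.71 to 0.31 and that of ycf2 from -0.47 to 0.68. ycf2 RNA was 942, 997 and 1321 CPM in ΔpsbJ, against 539, 512 and 487 in pRB8c (0.44 ± 0.17, adjusted p = 0.0178, edgeR). Without ΔpsbJ replicate 1 it was called, at 0.52 (adjusted p = 0.0056, edgeR). ycf1 RNA was 447, 524 and 616 CPM in ΔpsbJ, against 310.3, 282 and 229.7 in pRB8c (0.31 ± 0.19, adjusted p = 0.131, edgeR), where 33.8% of genes were called higher. Translation efficiency was -0.51 ± 0.30 for ycf1 and -0.33 ± 0.33 for ycf2, with 13.0% of genes called higher and 13 of 77 lower.

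In ΔpsaB the result turned on replicate 1, its library with the lowest chloroplast share. ycf1 had 6512, 4088 and 2679 CPM of footprints in ΔpsaB, against 826, 1861 and 862 in RB70. ycf2 had 13247, 2523 and 1690.4 CPM of footprints in ΔpsaB, against 529, 1112 and 487 in RB70. No mutant library overlapped with a control library, but ycf2 in replicate 1 stood far above both other replicates. Per coding count the median footprint change of all 77 genes was itself 0.78, and 4 genes were called higher. The log2 change was 1.16 ± 0.33 (SE) for ycf1 and 2.15 ± 0.61 for ycf2 (adjusted p = 0.0387 for each, edgeR). In this comparison 0% of genes were called in translation output with edgeR, 27 of 77 had an unadjusted p under 0.05, and DESeq2's Wald test called 17. Without ΔpsaB replicate 1 both genes were called higher, ycf1 by 0.95 (adjusted p = 0.00209) and ycf2 by 1.00 (adjusted p = 0.00294, edgeR).

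In RNA, too, replicate 1 of ΔpsaB stood apart in composition. The chloroplast share of its mapped RNA reads was 36.3%, against 60.6 and 65.5% in ΔpsaB replicates 2 and 3 and 56.9 to 61.2% in RB70, and the mitochondrial share was 16.3%, against 7.80 and 5.97% in those replicates and 4.92 to 6.04% in RB70. Their part in the RNA values was not tested. ycf1 RNA was 3348, 1089.6 and 868 CPM in ΔpsaB, against 629, 542 and 488 in RB70, and rose by 1.45 ± 0.27 (SE, adjusted p = 0.00947, edgeR), 1 of the 2.60% of genes called higher. Leaving out ΔpsaB replicate 2 or 3, or any RB70 replicate, ended that call (1.37 to 1.75, adjusted p = 0.0269 to 0.0834, edgeR). ycf2 RNA was 10771, 1971 and 1403 CPM in ΔpsaB, against 699, 664 and 618 in RB70 (2.45 ± 0.49, adjusted p = 0.0121, edgeR), the highest estimate of all 77 genes. The replicate number was also tried as a block, a pairing taken from the data and not from the labels. Deviations of same-numbered RNA libraries of this pair correlated at 0.108 to 0.346, and not every library was most like its own number. With the block ycf2 was called at 2.21 (adjusted p = 1.47e-06, edgeR; 15 genes called in all, against 7 without the block). Without ΔpsaB replicate 1 and without the block ycf2 was called at 1.70 (adjusted p = 5.39e-15, edgeR). Translation efficiency was -0.29 for each gene (adjusted p = 0.785 for ycf1 and 0.877 for ycf2, edgeR). In it 0% of genes were called higher with edgeR and 1 of 77 lower. At an unadjusted p under 0.05 there were 17 of 77 in either direction, and DESeq2's Wald test called 5.

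as-ATPC gave small changes with a narrow spread between replicates. ycf2 had 2208, 1637 and 1758 CPM of footprints in as-ATPC, against 944, 939 and 831 in SNN, and its translation output rose by 1.02 ± 0.11 (SE, 2.03-fold, adjusted p = 7.71e-07, edgeR; rank 5 of 77). ycf1 had 2973, 2316 and 2602 CPM of footprints in as-ATPC, against 2167, 2163 and 1753 in SNN, and rose by 0.35 ± 0.10 (1.27-fold, adjusted p = 0.00495, edgeR), where 36.4% of genes were called higher. The ycf1 call was lost without as-ATPC replicates 1 or 3 or SNN replicate 3 (0.26 to 0.32, adjusted p = 0.0164 to 0.0878, edgeR). In RNA the order of the genes was the other way round. ycf1 RNA was 708, 642 and 575 CPM in as-ATPC, against 318, 386 and 265 in SNN, and rose by 0.63 ± 0.12 (adjusted p = 1.50e-05, edgeR). ycf2 RNA was 1532, 1409 and 1287 CPM in as-ATPC, against 845, 904 and 775 in SNN, and rose by 0.38 ± 0.10 (adjusted p = 0.00102, edgeR; 39.0% of genes called higher). Without SNN replicate 1 both RNA calls were lost (ycf1 0.73, adjusted p = 0.0104; ycf2 0.50, adjusted p = 0.0129, edgeR), and without as-ATPC replicate 1 that of ycf2 (0.32, adjusted p = 0.0173, edgeR). Translation efficiency of ycf2 was higher by 0.64 ± 0.14 (SE, adjusted p = 0.000536, edgeR; 23.4% of genes called higher), and this call was lost without SNN replicate 1 (0.56, adjusted p = 0.0266, edgeR). For ycf1 it was -0.28 ± 0.15 (adjusted p = 0.133, edgeR), where 12 of 77 genes were called lower.

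**Figure D2:**
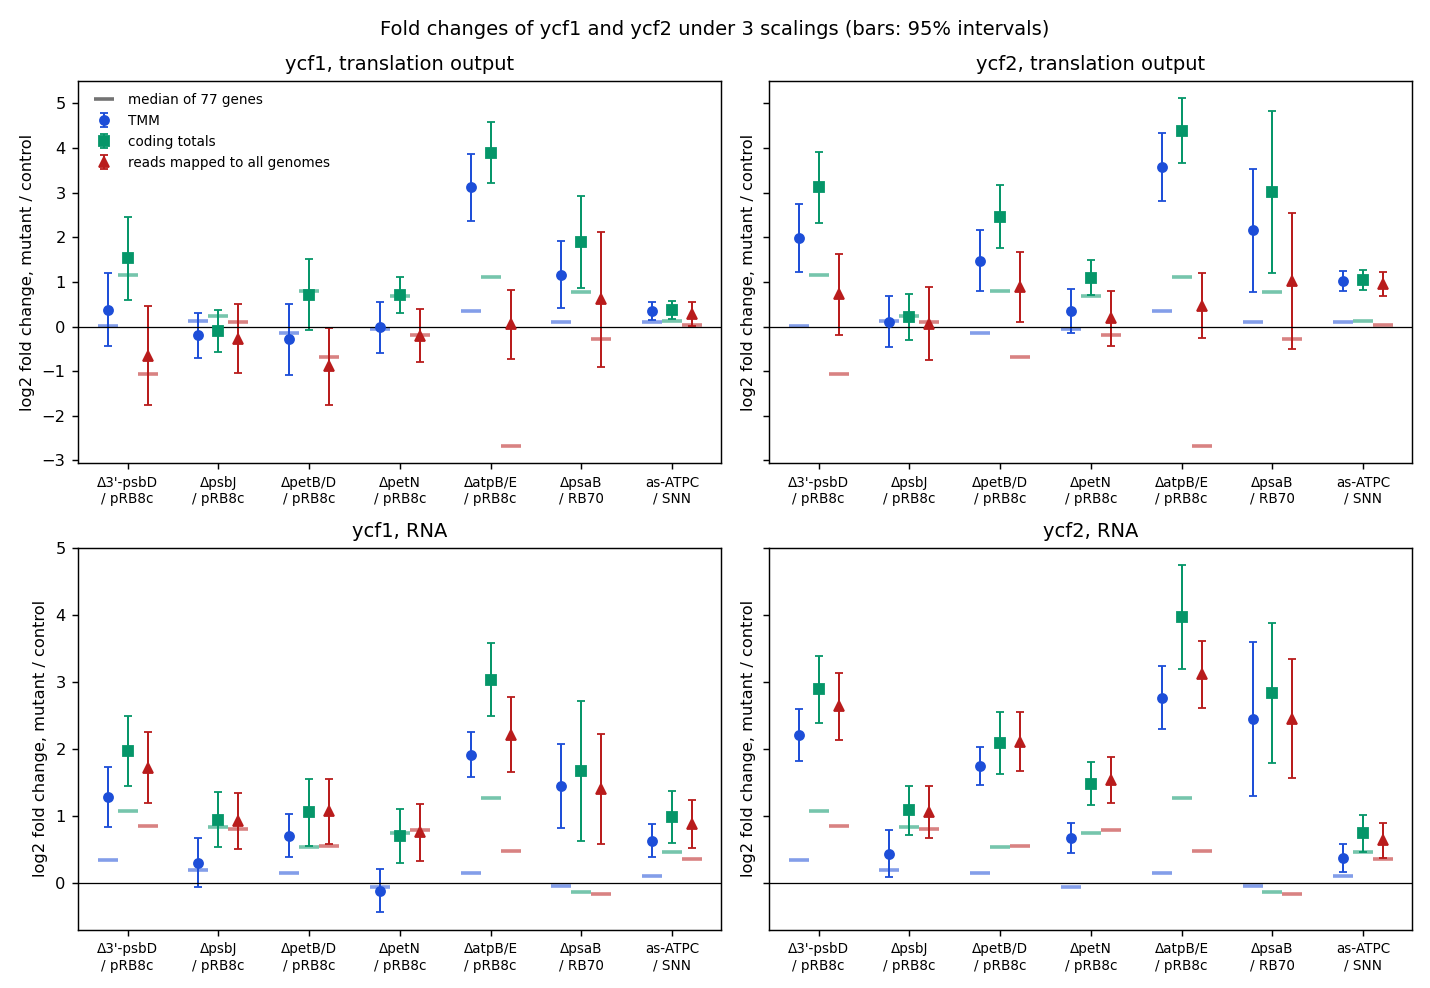
log2 change of ycf1 and ycf2 (mutant over control) in translation output and RNA for the 7 mutants, with 95% intervals, under TMM scaling (circles), per coding count (squares) and per read mapped to all genomes (triangles), beside short lines at the median of all 77 genes. In ΔatpB/E the translation output of ycf2 is 3.57 with TMM and 0.47 per mapped read.

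Counted against the reads mapped to all genomes, which also hold the nuclear and mitochondrial reads, neither gene's footprints passed the test in any of the 5 mutants with pRB8c as control. ycf1 had 177, 283 and 370.3 footprints per 1000000 mapped in ΔatpB/E, against 449, 188 and 166 in pRB8c, and ycf2 had 225, 184 and 141 in ΔatpB/E, against 206, 107 and 83.4 in pRB8c. The libraries overlapped, with log2 changes of 0.05 (adjusted p = 0.898) and 0.47 (adjusted p = 0.202, edgeR). On the same scale the median of all 77 genes was -2.67 in ΔatpB/E, and 1.30% of genes were called higher. Another scaling moves every gene of a library alike, so values relative to the median gene are nearly fixed by the method. They were 2.72 to 2.78 for ycf1 and 3.14 to 3.27 for ycf2, and their narrow range is no test of the scaling.

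In the other mutants with pRB8c as control, the change per mapped footprint was -0.65 for ycf1 and 0.73 for ycf2 in Δ3'-psbD (0% of genes called higher), and -0.89 and 0.88 in ΔpetB/D (1.30%). It was -0.20 and 0.18 in ΔpetN (15.6%) and -0.27 and 0.06 in ΔpsbJ (0%). None of these passed the test. The Δ3'-psbD replicates of ycf1 were 200.4, 256 and 54.3 per 1000000 mapped, against 449, 188 and 166 in pRB8c, so that replicate 3 alone lay below the control range. ycf2 in ΔpetB/D was 208, 288 and 235 per 1000000 mapped, against 206, 107 and 83.4 in pRB8c, every mutant library above every control library (adjusted p = 0.0597, edgeR). ΔpsaB gave 0.61 for ycf1 and 1.01 for ycf2 (0% of genes called higher; adjusted p = 0.944 for each, edgeR). In as-ATPC ycf2 was 559, 419 and 484 per 1000000 mapped, against 260.2, 268 and 227 in SNN, and rose by 0.95 (adjusted p = 7.60e-05, edgeR; 23.4% of genes called higher), while ycf1 was 0.28 (adjusted p = 0.0532, edgeR).

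**Figure D3:**
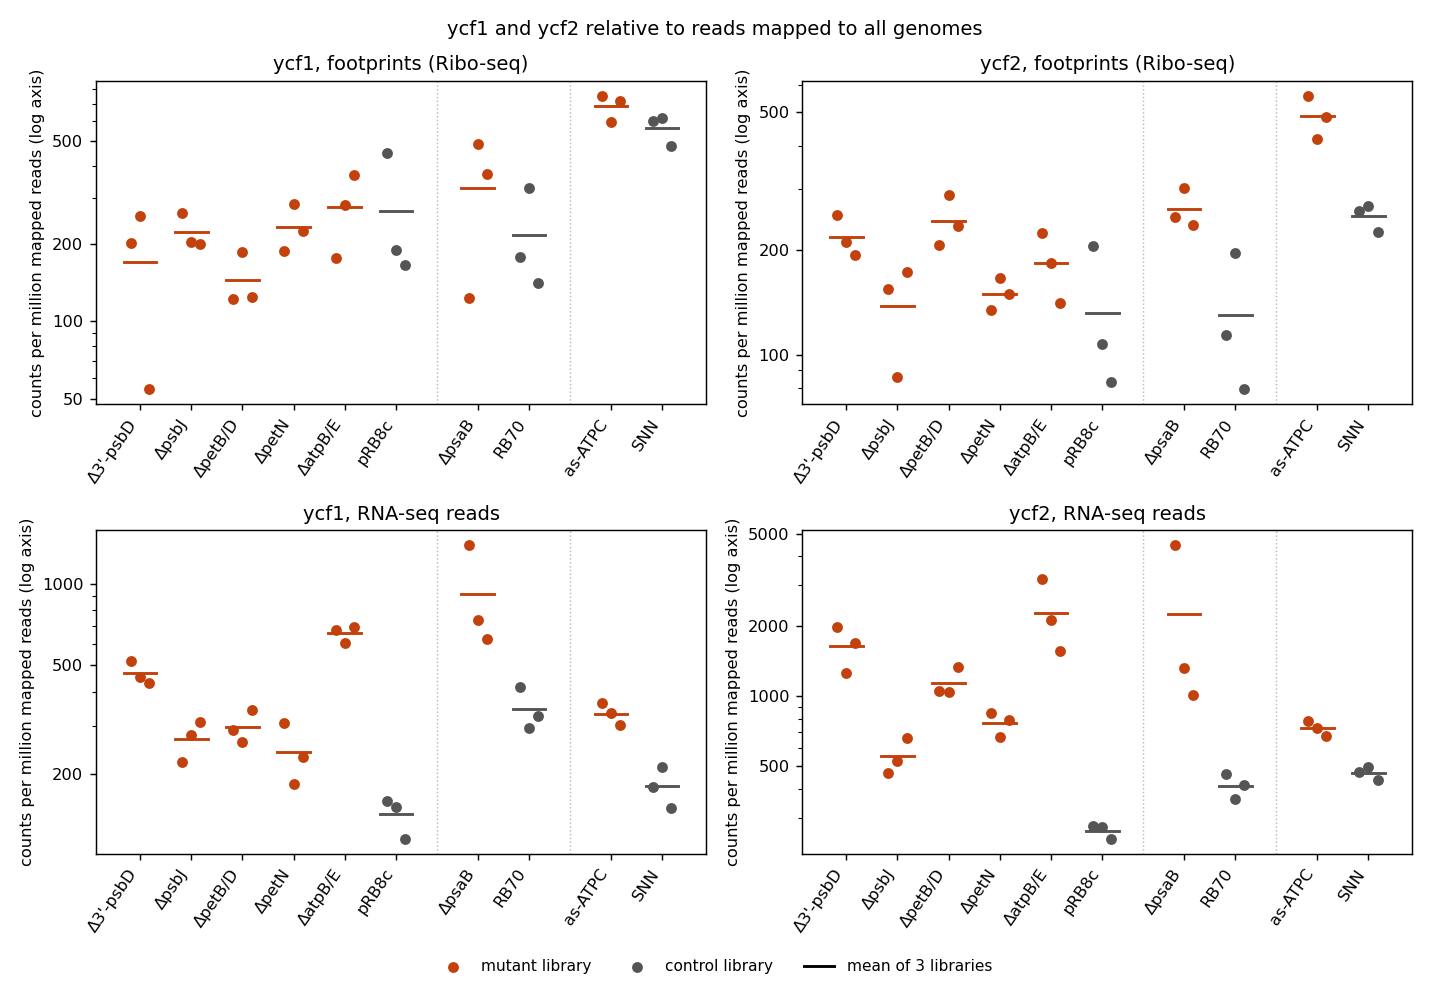
Counts of ycf1 and ycf2 per 1000000 reads mapped to all genomes (log axis) in each library of the 10 lines, every mutant left of its control, with a bar at the mean of 3 replicates. In Ribo-seq the ycf1 values of ΔatpB/E (177 to 370.3) lie inside those of pRB8c (166 to 449), whereas in RNA-seq the ycf2 values of ΔatpB/E (1568 to 3175) lie above them (244 to 276).

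In RNA the changes per mapped read stayed large in ΔatpB/E and Δ3'-psbD. ycf2 had 3175, 2117 and 1568 counts per 1000000 mapped in ΔatpB/E, against 276, 273 and 244 in pRB8c. ycf1 had 675, 606 and 693 in ΔatpB/E, against 159, 151 and 115 in pRB8c. The log2 changes of ycf1 and ycf2 were 2.22 and 3.11 in ΔatpB/E (44.2% of genes called higher), 1.73 and 2.64 in Δ3'-psbD (46.8%), 1.07 and 2.11 in ΔpetB/D (49.4%), 0.76 and 1.54 in ΔpetN (66.2%) and 0.93 and 1.06 in ΔpsbJ (64.9%). They were 1.40 and 2.46 in ΔpsaB (5.19%) and 0.89 and 0.64 in as-ATPC (53.2%), and all 14 were called. Some of these calls appeared only on this scale. With TMM scaling ycf1 was not called in ΔpetN (-0.11) and ΔpsbJ (0.31), nor ycf2 in ΔpsbJ (0.44) and ΔpsaB (2.45). In ΔpetN and ΔpsbJ the median gene was itself 0.80 and 0.81 higher, and ycf1 stood at -0.04 and 0.11 relative to it.

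The changes differed among the 5 mutants that share pRB8c, tested with an F statistic over the mutants within the edgeR fit. For translation output F was 36.4 for ycf1 and 36.0 for ycf2 (adjusted p = 4.06e-07 for each), where 66.2% of genes were called. For RNA it was 37.2 (adjusted p = 6.98e-09) and 43.2 (adjusted p = 1.73e-09), where 81.8% were called. Per mapped footprint neither gene passed this test: F was 1.38 for ycf1 (adjusted p = 0.275) and 2.32 for ycf2 (adjusted p = 0.0969), although 90.9% of genes were called on that scale, and ycf1 had the highest p of all 77 genes. For RNA per mapped read both were called (F 15.6 and 25.1; adjusted p = 2.39e-06 and 2.67e-08, edgeR), with 64.9% of genes called.

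Between pairs of mutants, ycf1 translation output differed in 4 of 10 pairs, all of them with ΔatpB/E. It was lower by -2.30 in Δ3'-psbD (35.1% of genes called in that pair), -2.98 in ΔpsbJ (50.6%), -2.96 in ΔpetB/D (55.8%) and -2.69 in ΔpetN (40.3%), each against ΔatpB/E. ycf2 translation output differed in 8 of 10 pairs. Against ΔatpB/E it was -1.11 in Δ3'-psbD, -3.08 in ΔpsbJ, -1.60 in ΔpetB/D and -2.72 in ΔpetN. It was higher in Δ3'-psbD than in ΔpsbJ by 1.97 (11.7% of genes called) and than in ΔpetN by 1.61 (9.09%), lower in ΔpsbJ than in ΔpetB/D by -1.48 (29.9%), and higher in ΔpetB/D than in ΔpetN by 1.12 (24.7%). The pairs Δ3'-psbD and ΔpetB/D (0.49 ± 0.29 SE, adjusted p = 0.321, edgeR) and ΔpsbJ and ΔpetN (-0.36 ± 0.29, adjusted p = 0.395, edgeR) were not told apart, with 15.6% of genes called in each.

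In RNA each gene differed in 7 of 10 pairs. ycf1 RNA in ΔatpB/E was above that of each other mutant, the differences being -0.68 for Δ3'-psbD (32.5% of genes called), -1.60 for ΔpsbJ (63.6%), -1.19 for ΔpetB/D (55.8%) and -1.75 for ΔpetN (57.1%). ycf2 RNA was lower by -2.32 in ΔpsbJ, -1.003 in ΔpetB/D and -1.81 in ΔpetN than in ΔatpB/E, and the difference of Δ3'-psbD, -0.60 ± 0.20 (SE), missed the threshold (adjusted p = 0.0165, edgeR). Between Δ3'-psbD and ΔpsbJ the differences of ycf1 and ycf2 were 0.92 and 1.72 (45.5% of genes called), between Δ3'-psbD and ΔpetN 1.06 and 1.21 (36.4%), and between ΔpetB/D and ΔpetN 0.55 and 0.81 (49.4%). ycf2 was lower in ΔpsbJ than in ΔpetB/D by -1.32 (42.9%), while ycf1 was not called there (-0.41, adjusted p = 0.0427, edgeR). Neither gene was called between Δ3'-psbD and ΔpetB/D (0.51 and 0.40; 14.3%) or between ΔpsbJ and ΔpetN (0.14 and -0.51; 13.0%).

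The ratio of ycf2 to ycf1 counts needs no scaling between libraries. In footprints it was 1.70, 1.55 and 1.90 in ΔpetB/D and 1.26, 0.826 and 3.57 in Δ3'-psbD, against 0.459, 0.571 and 0.502 in pRB8c, so that the geometric mean was 3.36-fold and 3.04-fold that of the control. It was 0.718, 0.580 and 0.670 in ΔpetN, against the same pRB8c values (1.28-fold), and 0.743, 0.707 and 0.676 in as-ATPC, against 0.435, 0.434 and 0.474 in SNN (1.58-fold). In these 4 comparisons the libraries did not overlap. In ΔatpB/E the ratio was 1.27, 0.650 and 0.381, spanning the whole range of pRB8c, and ΔpsbJ and ΔpsaB overlapped with their controls too. The exact two-sided permutation test gave p = 0.1 wherever 3 libraries lay apart from 3, the smallest p it allows, or 0.15 adjusted over the 18 comparisons, so none could pass the threshold.

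In RNA the ratio was higher in ΔatpB/E (4.71, 3.49 and 2.26), ΔpetB/D (3.64, 4.02 and 3.88), Δ3'-psbD (3.82, 2.79 and 3.92) and ΔpetN (2.76, 3.66 and 3.44) than in pRB8c (1.74, 1.81 and 2.12), by 1.77, 2.04, 1.84 and 1.73 times, without overlap. ΔpsbJ, at 2.11, 1.90 and 2.14, overlapped with pRB8c. In ΔpsaB it was 3.22, 1.81 and 1.62, against 1.111, 1.22 and 1.27 in RB70 (1.76 times), and in as-ATPC 2.16, 2.20 and 2.24, against 2.66, 2.34 and 2.93 in SNN (0.835 times). The ratio of the control lines themselves was lower in RB70 (0.637 times) and higher in SNN (1.40 times) than in pRB8c, also without overlap.

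**Figure D4:**
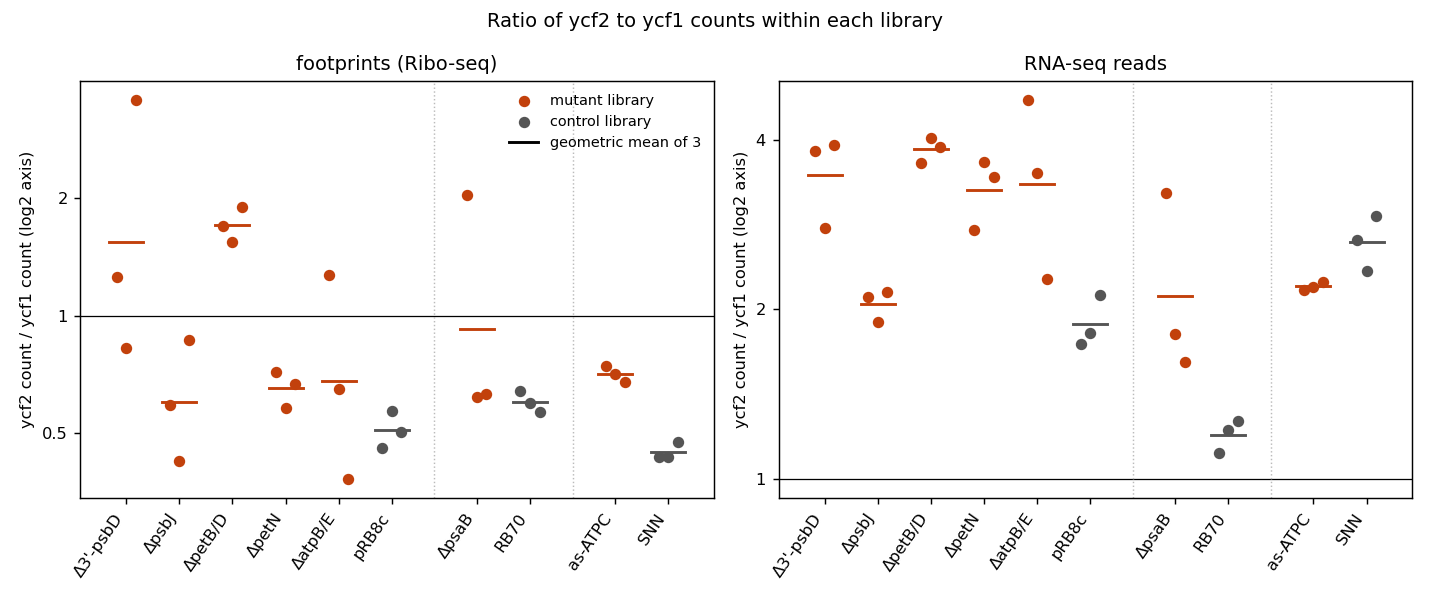
Ratio of ycf2 to ycf1 counts (log axis) in each library of the 10 lines, in Ribo-seq and RNA-seq, every mutant left of its control, with a bar at the geometric mean of 3 replicates. The 3 ΔpetB/D footprint libraries sit between 1.55 and 1.90 and those of pRB8c between 0.459 and 0.571, while ΔatpB/E and Δ3'-psbD scatter widely.

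Footprint share per RNA share, a level of translation per transcript, was higher for ycf1 than for ycf2 in each of the 10 lines. For ycf1 it ranged from 2.01 in RB70 to 8.01 in ΔatpB/E, with 4.32 in pRB8c and 6.37 in SNN. For ycf2 it ranged from 0.642 in ΔpsbJ to 1.63 in ΔatpB/E, with 1.17 in pRB8c. A value over 1 means that the gene took a larger share of the coding footprints than of the coding RNA, per nucleotide counted. The order of the genes holds only if reads of the repeat were weighted alike in both kinds of library.

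The control lines were compared with each other. By the study's growth conditions, though not by the labels, SNN may also differ from pRB8c in growth medium and light. The RNA libraries of RB70 held fewer counts than those of pRB8c. The values below therefore do not show variation between lines alone. Between RB70 and pRB8c, translation output was -0.42 ± 0.31 (SE) for ycf1 and -0.16 ± 0.30 for ycf2 (adjusted p = 0.313 and 0.705, edgeR; 9.09% of genes called in either direction). RNA of ycf2 was lower in RB70 by -0.46 ± 0.11 (adjusted p = 0.00397, edgeR; 61.0% called), but it was 0.64 higher per mapped read and 0.37 higher per coding count, and 5 of the 6 fits without 1 library lost the call (-0.50 to -0.43, adjusted p = 0.0106 to 0.0264, edgeR), all but the fit without RB70 replicate 2. ycf1 RNA was 0.19 (adjusted p = 0.185, edgeR). Between SNN and pRB8c, translation output was 0.19 for ycf1 and 0.02 for ycf2 (46.8% called). Without pRB8c replicate 1 ycf1 was called, at 0.51 (adjusted p = 0.00905, edgeR). ycf1 RNA was -0.43 ± 0.14, which missed the threshold narrowly (adjusted p = 0.010002, edgeR), and ycf2 RNA 0.04 (50.6% called). The translation efficiency of ycf1 in SNN was 0.62 (adjusted p = 0.0495) and reached 0.93 without pRB8c replicate 1 (adjusted p = 0.000998, edgeR), where 36.4% of genes were called. In RB70 it was -0.61 (adjusted p = 0.155, edgeR; 44.2% called).

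ycf1 and ycf2 were set beside the other genes known for NEP promoters: accD (a subunit of acetyl-CoA carboxylase), clpP (a protease subunit), and rpoB, rpoC1 and rpoC2, which encode parts of the plastid RNA polymerase itself. Of these 7, RNA was called higher for 6 in ΔatpB/E (41.6% of all genes, median log2 change 2.28, against 0.15 over all genes), 6 in Δ3'-psbD (40.3%, 1.98, against 0.35), 6 in ΔpetB/D (41.6%, 1.34, against 0.16), 5 in ΔpetN (26.0%, 0.79, against -0.06), 4 in ΔpsbJ (33.8%, 0.78, against 0.19), 5 in as-ATPC (39.0%, 0.38, against 0.10) and 1 in ΔpsaB (2.60%, 1.04, against -0.05). In ΔpetB/D, ΔpetN and as-ATPC 1 of the 7 was called lower. The list was chosen with results of these data known, so the counts describe it and are no test of it. ycf2 led the list in RNA in ΔatpB/E (2.77) and Δ3'-psbD (2.21), where rpoB, rpoC1 and rpoC2 stood at 2.41, 2.32 and 2.28 and at 2.04, 2.07 and 1.96. In ΔpsbJ and ΔpetN, by contrast, rpoB (1.16 and 1.41), rpoC1 (1.41 and 1.57) and rpoC2 (1.27 and 1.36) stood above ycf2 (0.44 and 0.67) and ycf1 (0.31 and -0.11). clpP went the other way in some lines: its translation output was lower in ΔpetB/D (-1.67), ΔpetN (-1.34) and Δ3'-psbD (-0.97).

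In translation output the NEP genes called higher numbered 7 in as-ATPC (36.4% of all genes, median 0.74, against 0.10 over all genes), 6 in ΔatpB/E (44.2%, 3.12, against 0.36), 4 in ΔpetB/D (13.0%, 1.06, against -0.15), 3 in Δ3'-psbD (11.7%, 1.31, against 0.02), 2 in ΔpetN (26.0%, 0.15, against -0.05) and 0 in ΔpsbJ (7.79%) and ΔpsaB (0%). The share in ΔpetN is near that of all genes and is no result about the list. At an unadjusted p under 0.05 in edgeR, 1 was higher in ΔpsbJ and 5 in ΔpsaB, and DESeq2 called 0 and 1. Per mapped footprint the median of the list was 0.05 in ΔatpB/E, where the median of all genes was -2.67, and 1 gene was called higher and 1 lower. rpoC1 (4.38) and rpoC2 (3.97) rose more than ycf1 and ycf2 in ΔatpB/E, and so did rpoC2 (2.53) in Δ3'-psbD. Of the 4 NEP genes that encode no polymerase subunit (accD, clpP, ycf1 and ycf2), 3 were called higher in RNA in ΔatpB/E (32 of all 77), Δ3'-psbD (31 of 77), ΔpetB/D (32 of 77) and as-ATPC (30 of 77), 2 in ΔpetN (20 of 77) and 1 in ΔpsbJ (26 of 77) and in ΔpsaB (2 of 77). The count in ΔpsbJ is no higher than that of all genes.

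**Figure D5:**
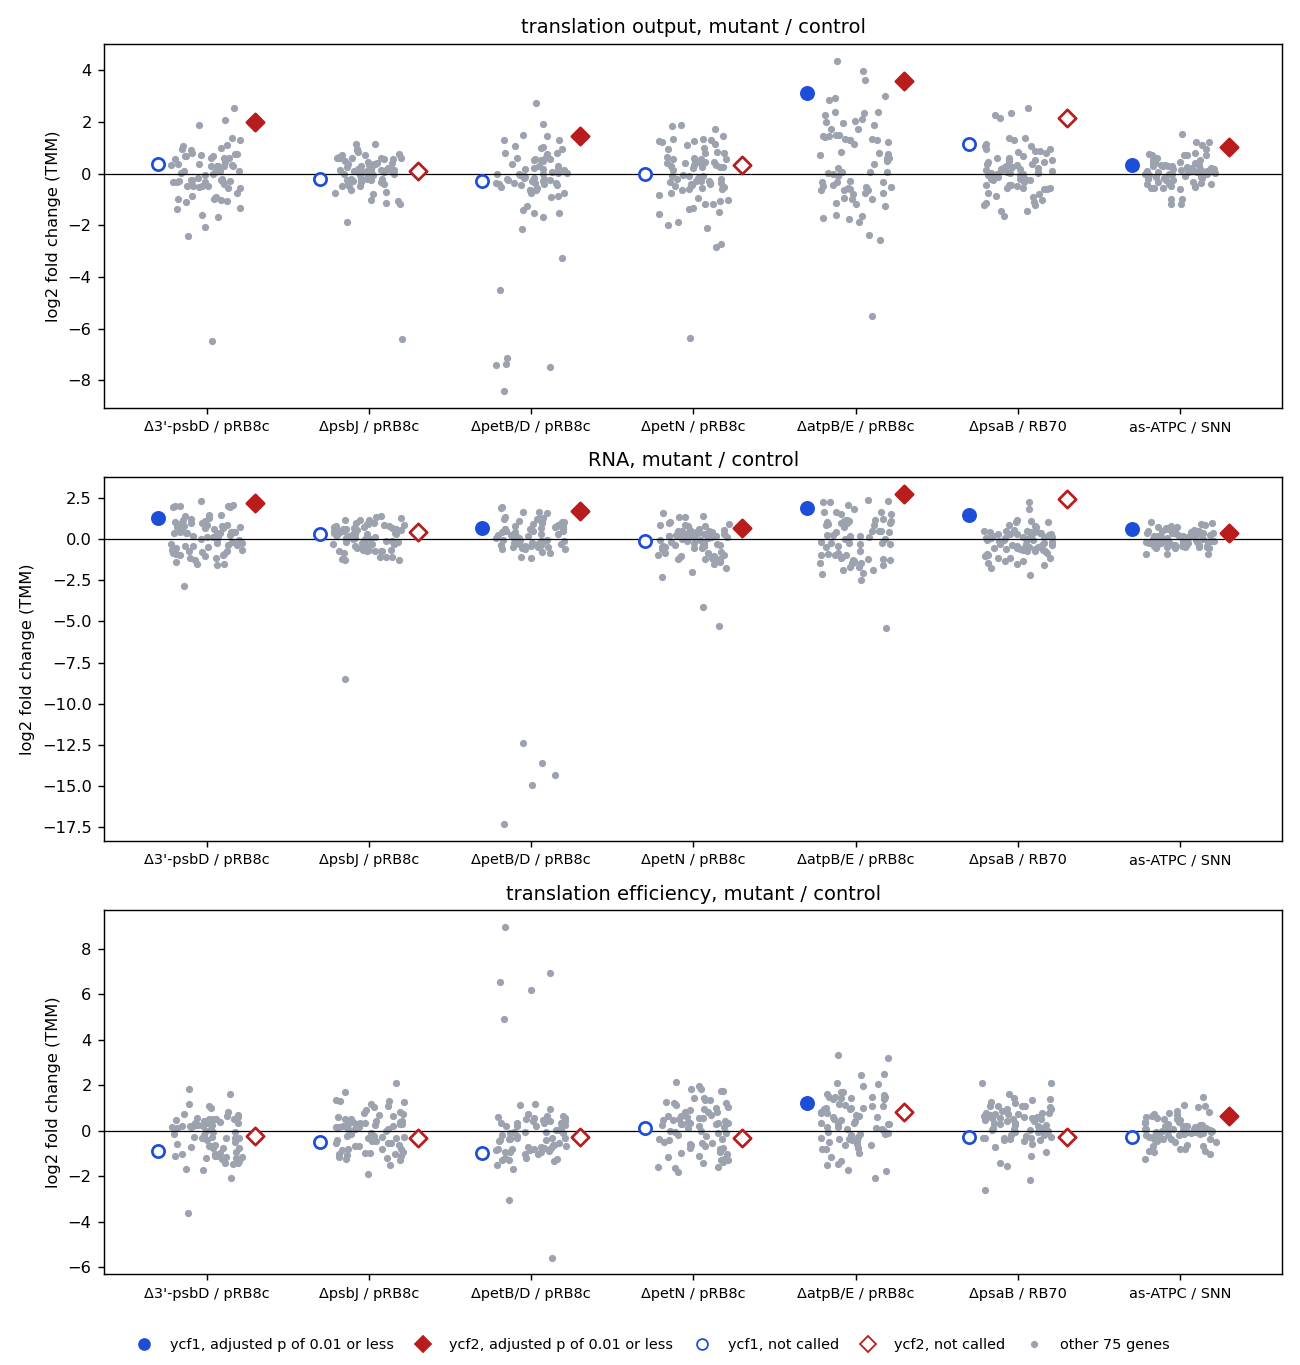
log2 changes (mutant over control, TMM) of all 77 genes, the others as grey points, for each mutant, in translation output, RNA and translation efficiency, with ycf1 (circles) and ycf2 (diamonds) filled where called and open where not, and a line at 0. In RNA, ycf2 is the topmost point in ΔatpB/E (2.77) and ΔpsaB (2.45).

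The genes next to ycf1 and ycf2 on the chromosome were looked at because transcripts can run on from gene to gene. ndhB, which encodes a subunit of the NDH complex and lies beside ycf2 in the inverted repeat, was called higher in RNA in ΔatpB/E (1.84), Δ3'-psbD (1.30), ΔpetB/D (1.23), ΔpetN (0.97) and ΔpsbJ (0.89), and in translation output in ΔatpB/E (2.34) and as-ATPC (1.24). The ribosomal protein gene rpl23, on the other side of ycf2, was at -0.20 in ΔatpB/E RNA and rose in ΔpetB/D (1.21) and Δ3'-psbD (0.97). Beside ycf1, rps15 RNA rose in ΔatpB/E (0.87) and Δ3'-psbD (0.64) and fell by 0.46 in ΔpetN, and ndhH was at 0.25 in both ΔatpB/E and Δ3'-psbD. Of the 6 tested genes of the inverted repeat, 4 were called higher in RNA in ΔatpB/E (41.6% of all genes) and in Δ3'-psbD (40.3%), 3 in ΔpetB/D (41.6%) and ΔpetN (26.0%), 2 in ΔpsbJ (33.8%), 5 in as-ATPC (39.0%) and 0 in ΔpsaB (2.60%; 2 of the 6 at an unadjusted p under 0.05 in edgeR, 1 by DESeq2). In ΔpetB/D and ΔpsbJ this is near the share of all genes and is no result about the repeat.

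Other gene groups give the scale of these changes. Of the 26 genes of the photosystems and the cytochrome b6f complex, RNA was called lower with TMM scaling for 19 in ΔatpB/E (26 of all 77), 16 in Δ3'-psbD (22 of 77), 8 in ΔpetB/D (16 of 77), 21 in ΔpetN (33 of 77), 16 in ΔpsbJ (20 of 77), 13 in as-ATPC (19 of 77) and 1 in ΔpsaB (5 of 77). The counts include genes that a mutant lacks or that are disrupted in it, among them psbB, psbT, psbH, psbN and petB in ΔpetB/D, whose fall the deletion fixes. The counts depend on the scaling, and per read mapped to all genomes they were 17 in ΔatpB/E (23 of 77), 4 in Δ3'-psbD (5 of 77), 5 in ΔpetB/D (7 of 77), 7 in ΔpetN (8 of 77), 5 in ΔpsbJ (6 of 77), 6 in as-ATPC (9 of 77) and 3 in ΔpsaB (6 of 77). With TMM scaling their median was -1.25 in ΔatpB/E, where ycf1 and ycf2 rose. Of 9 genes for the large ribosomal subunit and 12 for the small one, 6 and 10 were called higher in RNA in ΔatpB/E (41.6% of all genes, medians 1.02 and 0.96), 6 and 8 in Δ3'-psbD (40.3%), 5 and 7 in ΔpetB/D (41.6%), 2 and 4 in ΔpetN (26.0%), 2 and 7 in ΔpsbJ (33.8%), 9 and 9 in as-ATPC (39.0%) and 0 and 1 in ΔpsaB (2.60%), where 2 of the large-subunit genes had an unadjusted p under 0.05 in edgeR and 2 were called by DESeq2. The counts in ΔpetN, and that of the large subunit in ΔpsbJ, are near the shares of all genes. Called lower were 1 large-subunit gene in ΔpetB/D and in ΔpetN, and 1 small-subunit gene in each of ΔatpB/E, Δ3'-psbD, ΔpetB/D, ΔpsbJ and as-ATPC and 3 in ΔpetN.

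Over the mean levels of the 10 lines, some genes followed ycf1 and ycf2 closely, as described by Pearson's r of the log2 level among 76 genes. The lines share controls and libraries, so r is given with no test. In footprints, ycf1 was most like rpoA (r = 0.88), rpoB (0.88) and rps2 (0.83), with ycf2 at rank 5 (0.80), while the median gene had 0.13. ycf2 was most like ndhB (0.90), rpoC2 (0.88) and rps18 (0.85), with a median of -0.12. In RNA, ycf1 was most like the ribosomal protein genes rps18 (0.91), rpl36 (0.91) and rpl33 (0.90), with ycf2 at rank 4 (0.88), and ycf2 was most like rps18 (0.92), rpl33 (0.89) and ndhF (0.88). Without ΔatpB/E, the r between ycf1 and ycf2 was 0.55 in footprints and 0.78 in RNA.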

How the data were processed

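Leaf tissue of 10 tobacco lines was studied in 60 libraries, 3 of Ribo-seq and 3 of RNA-seq per line. Groups and replicate numbers were taken from the sample labels. The study calls the 3 samples biological replicates, but the labels do not name separate plants, so p-values measure the spread between these samples.

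The authors trimmed adapters (cutadapt, with FastQC for quality), aligned reads with STAR 2.7.1a first to rRNA and tRNA and then to the chloroplast, mitochondrial and nuclear genomes, and deposited raw Ribo-seq counts per reading frame, leaving out the first 10 and last 30 nt of each frame and all but the last exon of genes with introns. The submitters' processing notes further list SAMtools and bedtools. RNA-seq values were deposited as estimated counts, since 94 values in 6 genes end in a fraction, and these were rounded to whole numbers. The 60 columns of RPKM in the same tables were not used. Percentages of reads mapped per genome were likewise given by the authors, and the deposited read counts behind them gave the reads mapped to all genomes. Ribosomes were isolated after RNase I digestion through a sucrose cushion, and RNA-seq followed removal of rRNA. Counts relative to the other chloroplast frames move with every other frame, whereas counts per mapped read also move with the chloroplast share of the library.

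Each mutant was tested against its own control with edgeR 4.0.16 in R 4.3.3 (quasi-likelihood test, TMM, genes with at least 10 counts in at least 3 libraries, Benjamini-Hochberg over all genes). Translation efficiency was the interaction of genotype and library type in 1 fit. That fit treated footprint and RNA libraries of the same line and number as independent. Whether they came from the same tissue was not tested, and shared tissue could change the SE and p-values of translation efficiency. A gene was called where its adjusted p was at most 0.01. Alternatives were library sizes from coding counts or mapped reads, DESeq2 1.42.0 size factors and its Wald test, no filter, the replicate number as a block, the other transplastomic control, and each replicate left out. The fits were run on simulated data in which as many genes were raised as lowered. Such data do not test the scaling where most genes move in 1 direction. Exact binomial 95% intervals cover counting error only. No replicate pair agreed within sampling noise by a chi-square test of counts, so each library counted as 1 replicate. 

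Numbers of the same replicate were checked for pairing by the correlation of their deviations from the group means. Every pair exceeded 0.1 only for the RNA libraries of Δ3'-psbD (0.357 to 0.644) and ΔpsaB (0.108 to 0.346), a pairing that comes from the data and not from the labels.

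ycf1 and ycf2 and the gene lists (NEP promoters, inverted repeat, neighbours, ribosomal subunits, photosystem and cytochrome genes) were chosen with earlier results of these data known. The genes named are these members, those of the NEP and neighbour lists, the disrupted genes as a check, and the 3 genes most like each member by Pearson's r of log2 levels (prior count 2) over the 10 lines. No sequence is shown, since no reference holding the frames was used here.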

Additional observations from a re-analysis of the deposited data

Results flagged for a closer look

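The effects on ycf1 and ycf2 differed among the 5 mutants that share pRB8c, by edgeR's quasi-likelihood test over their differences from each other. In translation output F was 36.4 for ycf1 and 36.0 for ycf2, and in RNA 37.2 for ycf1 and 43.2 for ycf2, and all 4 passed the threshold. Translation output of ycf1 was 3.12 in ΔatpB/E and between -0.29 and 0.38 in Δ3'-psbD, ΔpsbJ, ΔpetB/D and ΔpetN. That of ycf2 was 3.57 in ΔatpB/E, 1.99 in Δ3'-psbD and 1.48 in ΔpetB/D, with 0.35 in ΔpetN and 0.11 in ΔpsbJ. Per mapped footprint the differences did not pass. Groups of 3 libraries are too small for a test of outlying samples.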

How the results depend on the processing

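Most results kept their direction and their side of the threshold: of the 54 values (3 measurements of each gene in 9 comparisons), 47 did so with DESeq2's size factors, 46 with DESeq2's Wald test, 52 without a filter, 47 with the replicate number as a block, 32 with the coding counts and 30 with all mapped reads as library sizes, and 28 of 36 did so against the other transplastomic control. With a replicate left out, 270 of 324 fits did so. These counts include values called under neither setting. With all mapped reads as library sizes, of the translation output calls in the mutants only that of ycf2 in as-ATPC was kept. The split of the calls by direction moved with the scaling. Of the genes called in translation output, 41.7 to 65.4% were higher with TMM, 63.2 to 100% by coding counts and 0 to 100% by mapped reads. For RNA these shares were 28.6 to 66.7%, 60.0 to 94.8% and 40.0 to 98.3%, and for translation efficiency 0 to 77.8%, 5.71 to 100% and 0 to 63.2%. The median log2 change of all genes in translation output lay between -0.15 and 0.36 with TMM, 0.12 and 1.16 by coding counts and -2.67 and 1.00 by mapped reads, and in RNA between -0.10 and 0.35, -0.13 and 1.27, and -0.16 and 1.26. ΔpsaB replicate 1 had the fewest coding footprints of all libraries (31328), which limits what could be told from it. Its footprint reads mapped to all genomes were more than in the line's other replicates (1658396, against 1156902 and 1050057). The alternatives for the control lines, the test over the 5 mutants, and the gene lists were added after seeing the data. The causes of the changes below were not tested, other than that a fit without a library has fewer samples. All values are log2 changes, mutant over control, or RB70 and SNN over pRB8c.

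With library sizes set to the coding counts, the values that lost or gained a call or changed sign were, for translation output, ycf1 0.71 in ΔpetB/D and 0.71 in ΔpetN and for ycf2 1.09 in ΔpetN and 0.22 in RB70. For RNA they were ycf1 0.95 in ΔpsbJ, 0.70 in ΔpetN, 1.68 in ΔpsaB, 1.01 in RB70 and 0.24 in SNN and for ycf2 1.09 in ΔpsbJ, 2.84 in ΔpsaB, 0.37 in RB70 and 0.72 in SNN. For translation efficiency they were ycf1 -1.04 in ΔpsbJ, 0.86 in ΔatpB/E, 0.22 in ΔpsaB and -0.62 in as-ATPC and for ycf2 0.23 in Δ3'-psbD, 0.37 in ΔpetB/D, 0.18 in ΔpsaB, 0.30 in as-ATPC and -0.14 in RB70. The number of genes called, set against that of the report, became 3 (against 9) for translation efficiency in Δ3'-psbD, 46 (against 19) for translation output in Δ3'-psbD, 18 (against 36) for translation efficiency in ΔatpB/E, 48 (against 24) for translation output in ΔpetB/D, 4 (against 1) for translation efficiency in ΔpsaB, 4 (against 0) for translation output in ΔpsaB, 35 (against 23) for translation efficiency in ΔpsbJ, 19 (against 11) for translation output in ΔpsbJ and 15 (against 7) for translation output in RB70. With library sizes set to the reads mapped to all genomes, the values that lost or gained a call or changed sign were, for translation output, ycf1 -0.65 in Δ3'-psbD, 0.048 in ΔatpB/E and 0.28 in as-ATPC and for ycf2 0.73 in Δ3'-psbD, 0.88 in ΔpetB/D and 0.47 in ΔatpB/E. For RNA they were ycf1 0.93 in ΔpsbJ, 0.76 in ΔpetN, 1.29 in RB70 and 0.35 in SNN and for ycf2 1.06 in ΔpsbJ, 2.46 in ΔpsaB, 0.64 in RB70 and 0.83 in SNN. For translation efficiency they were ycf1 -2.38 in Δ3'-psbD, -1.96 in ΔpetB/D, -0.96 in ΔpetN and -2.17 in ΔatpB/E and for ycf2 -1.91 in Δ3'-psbD, -1.36 in ΔpetN, -2.64 in ΔatpB/E, 0.32 in as-ATPC, -0.66 in RB70 and 0.10 in SNN. The number of genes called, set against that of the report, became 51 (against 9) for translation efficiency in Δ3'-psbD, 73 (against 36) for translation efficiency in ΔatpB/E, 41 (against 23) for translation efficiency in ΔpetB/D, 0 (against 1) for translation efficiency in ΔpsaB, 1 (against 11) for translation output in ΔpsbJ and 4 (against 7) for translation output in RB70. F over the 5 mutants was 1.38 for ycf1 and 2.32 for ycf2 in translation output. With DESeq2's size factors in edgeR, the values that lost or gained a call or changed sign were, for translation output, ycf1 0.26 in as-ATPC and for ycf2 -0.0026 in SNN. For RNA they were ycf1 1.65 in ΔpsaB. For translation efficiency they were ycf1 -0.044 in ΔpetN and 1.00 in ΔatpB/E and for ycf2 0.094 in Δ3'-psbD and 0.036 in ΔpetB/D. The number of genes called, set against that of the report, became 0 (against 7) for RNA in ΔpsaB, 2 (against 1) for translation efficiency in ΔpsaB and 2 (against 7) for translation output in RB70. Without a filter on low counts, the values that lost or gained a call or changed sign were, for RNA, ycf1 1.45 in ΔpsaB and for ycf2 0.48 in ΔpsbJ. With DESeq2's Wald test, the values that lost or gained a call or changed sign were, for translation output, ycf1 1.106 in ΔpsaB and 0.26 in as-ATPC and for ycf2 -0.0034 in SNN. For RNA they were ycf1 -0.37 in SNN and for ycf2 2.699 in ΔpsaB. For translation efficiency they were ycf1 -0.044 in ΔpetN and for ycf2 0.094 in Δ3'-psbD and 0.036 in ΔpetB/D. Against the other transplastomic control, the values that lost or gained a call or changed sign were, for translation output, ycf1 0.20 in ΔpsbJ, 0.15 in ΔpetB/D and 0.29 in ΔpetN. For RNA they were ycf1 0.24 in ΔpetB/D and for ycf2 0.86 in ΔpsbJ. For translation efficiency they were ycf1 0.12 in ΔpsbJ and 1.18 in ΔatpB/E and for ycf2 -0.17 in ΔatpB/E. The log2 ratio of ycf2 to ycf1 in footprints was 1.51 in ΔpetB/D and 0.12 in ΔpetN. The log2 ratio of ycf2 to ycf1 in RNA was 1.53 in Δ3'-psbD, 0.77 in ΔpsbJ, 1.68 in ΔpetB/D, 1.44 in ΔpetN, 1.48 in ΔatpB/E and 0.17 in ΔpsaB. With the replicate number as a block, the values that lost or gained a call or changed sign were, for translation output, ycf1 0.024 in ΔpetN and for ycf2 1.52 in ΔpetB/D and 1.79 in ΔpsaB. For RNA they were ycf1 -0.44 in SNN and for ycf2 2.21 in ΔpsaB and -0.46 in RB70. For translation efficiency they were ycf2 0.00056 in SNN. The number of genes called, set against that of the report, became 19 (against 9) for translation efficiency in Δ3'-psbD, 15 (against 7) for RNA in ΔpsaB, 0 (against 1) for translation efficiency in ΔpsaB, 8 (against 0) for translation output in ΔpsaB, 23 (against 11) for translation output in ΔpsbJ and 29 (against 47) for RNA in RB70. The block applies by the design to no comparison, and same-numbered libraries deviated together in every pair only for the RNA of Δ3'-psbD and ΔpsaB. Over all pairs their correlation ran from -0.59 to 0.64, with 20 of 54 below 0, and in 3 of 18 sets every library was most like its own number, which is a hint from the data and not from the design. In the RNA of Δ3'-psbD the block changed no call of ycf1 or ycf2. Beside the counts of 0, 30 genes had an unadjusted p under 0.05 for ΔpsaB RNA with DESeq2's size factors.

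With each replicate left out in turn, some values lost or gained a call or changed sign. The translation output of ycf1 ranged over -0.41 to 0.13 in ΔpsbJ, -0.52 to 0.10 in ΔpetB/D, -0.23 to 0.29 in ΔpetN, 0.95 to 1.53 in ΔpsaB, 0.26 to 0.40 in as-ATPC and 0.085 to 0.51 in SNN. The translation output of ycf2 ranged over 1.74 to 2.36 in Δ3'-psbD, -0.25 to 0.33 in ΔpsbJ, 1.24 to 1.75 in ΔpetB/D, 1.00 to 2.57 in ΔpsaB, -0.35 to 0.063 in RB70 and -0.087 to 0.25 in SNN. The RNA of ycf1 ranged over -0.19 to 0.16 in ΔpetN, 1.18 to 1.75 in ΔpsaB and 0.54 to 0.78 in as-ATPC. The RNA of ycf2 ranged over 0.25 to 0.54 in ΔpsbJ, 1.70 to 2.94 in ΔpsaB, 0.32 to 0.50 in as-ATPC, -0.66 to -0.43 in RB70 and -0.00057 to 0.12 in SNN. The translation efficiency of ycf1 ranged over -0.21 to 0.37 in ΔpetN, 0.90 to 1.54 in ΔatpB/E and 0.52 to 0.93 in SNN. The translation efficiency of ycf2 ranged over -0.51 to 0.017 in ΔpsbJ, -0.50 to 0.14 in ΔpetB/D, 0.56 to 0.67 in as-ATPC and -0.17 to 0.25 in SNN.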
